A study of Mus musculus with 22 samples.

Results

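Chemokines are small secreted proteins that steer cell movement, and the genes described here are the mouse chemokines, their G-protein-coupled receptors and the atypical receptors that take chemokines up without signalling for migration. Members were chosen by name: every protein-coding row with a Ccl, Cxcl, Cx3cl, Xcl, Ccr, Cxcr, Cx3cr, Xcr or Ackr symbol followed by a number. This gave 67 rows of the 49671 genes in the tables, under 62 distinct symbols: 44 ligands, 19 receptors and 4 atypical receptors. Of these, 25 had a mean of at least 10 normalized counts in the left or the right ventricular table, namely 13 ligands, 9 receptors and 3 atypical receptors. Normalized counts are the authors' read counts per gene divided by a size factor for each library.

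The tissue was left ventricular (LV) and right ventricular (RV) myocardium of CD1 mice, an outbred strain, sequenced in bulk. Surgery was on postnatal day 1, either neonatal pulmonary artery banding (nPAB), in which the vessel leaving the RV is tied down to a 30G needle so that pressure load rises, or a sham operation. The time from surgery to tissue collection was 7 days. The 4 groups were RV nPAB and LV nPAB, 6 libraries each, and RV Sham and LV Sham, 5 libraries each. Libraries of the 2 ventricles that share a number in their titles were taken as 1 mouse. All 22 libraries carried batch label 1 and no genetic modification was labelled. The labels name neither litters nor a measured pressure gradient, so the tests below rest on the spread between the mice sampled.

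Library depth was 7.11 to 11.3 M reads. The LV and RV libraries labelled nPAB mouse 6 differed in sex by Xist and Ddx3y, and so did those labelled nPAB mouse 7, while the other 9 mice matched, so for these 2 numbers the pairing of the ventricles is in doubt. Where leaving out these 4 libraries changed a call, both values are given. The nPAB against Sham tests within a ventricle do not use the pairing. For those tests, leaving the libraries out shows only how a value depends on having fewer nPAB mice. The tissue label fitted the cardiomyocyte markers, whose 8 genes summed to between 481322 and 751127 normalized counts per library.

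In general, chemokines bind glycosaminoglycans on vessel walls and matrix and form gradients that leukocytes follow through receptors coupled to inhibitory G proteins. Cxcl12, made by stromal and endothelial cells, acts on Cxcr4 and is known for its part in coronary vessel growth and in holding blood progenitors in tissue. Ackr3 binds and removes the same ligand. Ccr2 and Cx3cr1 mark monocytes and macrophages, including those resident in the newborn heart. Ackr2 clears inflammatory CC chemokines and Ackr4 clears Ccl19, Ccl21 and Ccl25.

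Promoter sequences were taken for Cxcl12 and its receptor Cxcr4, because this ligand and receptor moved in opposite directions, and for Ackr2 and Ackr4, the atypical receptors that rose in both ventricles. Each sequence is from RefSeq on GRCm38.p6 and runs from 250 bases before to 50 bases after the annotated start, 5′ to 3′ on the strand of the gene. Capitals mark the core of the hypoxia response element, searched as ACGTG or GCGTG on both strands.
Cxcl12, chr6:117168285-117168584, plus strand: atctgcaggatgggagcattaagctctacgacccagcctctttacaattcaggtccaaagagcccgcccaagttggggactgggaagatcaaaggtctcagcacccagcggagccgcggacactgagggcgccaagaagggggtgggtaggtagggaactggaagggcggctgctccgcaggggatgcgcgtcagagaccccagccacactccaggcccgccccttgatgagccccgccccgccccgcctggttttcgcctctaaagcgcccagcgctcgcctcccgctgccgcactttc
Cxcr4, chr1:128592250-128592549, minus strand: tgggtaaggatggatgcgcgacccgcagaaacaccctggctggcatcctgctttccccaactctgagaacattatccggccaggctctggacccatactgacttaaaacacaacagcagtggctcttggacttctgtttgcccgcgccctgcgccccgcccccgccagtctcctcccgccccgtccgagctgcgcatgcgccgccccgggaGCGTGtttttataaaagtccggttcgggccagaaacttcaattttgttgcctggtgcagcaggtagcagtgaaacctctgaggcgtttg
Ackr2, chr9:121898105-121898404, plus strand: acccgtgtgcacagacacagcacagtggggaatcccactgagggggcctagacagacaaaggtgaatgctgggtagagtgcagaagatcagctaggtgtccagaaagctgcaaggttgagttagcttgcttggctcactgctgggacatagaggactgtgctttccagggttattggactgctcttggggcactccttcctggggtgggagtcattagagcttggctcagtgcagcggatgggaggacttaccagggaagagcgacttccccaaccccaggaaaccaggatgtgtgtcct
Ackr4, chr9:104126594-104126893, minus strand: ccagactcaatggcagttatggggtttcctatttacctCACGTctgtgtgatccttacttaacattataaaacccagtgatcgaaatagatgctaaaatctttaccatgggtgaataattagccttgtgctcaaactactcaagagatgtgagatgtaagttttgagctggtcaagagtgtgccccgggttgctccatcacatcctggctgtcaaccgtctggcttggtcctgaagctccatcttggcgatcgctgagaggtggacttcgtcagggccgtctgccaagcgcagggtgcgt

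The core stood in the Cxcr4 window as GCGTG at positions -39 to -35 from the start and in the Ackr4 window as CACGT at positions -212 to -208. The Ackr4 window lies wholly inside the GENCODE span of the gene (chr9:104084157-104126933). Its positions thus hold for the RefSeq start only, which is downstream of the GENCODE start. It was not found in the Cxcl12 and Ackr2 windows. A promoter was matched for 19 of the 25 members, and 7 of these (Ackr3, Ackr4, Ccl25, Ccl27a, Ccr1, Cx3cr1 and Cxcr4) held the core, which 43.8% of all 27025 promoters of this length hold. The kappaB motif, bound by NF-kB and searched on both strands in a narrow form only, was in 0 of the 19 and in 0.385% of all promoters. With a form this rare, 0 of 19 does not show that these promoters lack NF-kB sites. The glucocorticoid response motif AGAACA, on either strand, was in Cxcl9, Cxcr2 and Cxcr4, against 19.0% of all promoters. The base composition of the printed windows ran from 48.7% GC in Ackr4 to 64.7% in Cxcl12.

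By level per kilobase of exon, the Cxcl12 axis led the family in every group. In RV Sham, Cxcr4 was at 88.8 normalized counts per kilobase, Cxcl12 at 76.0 and Ackr3 at 72.1, and the library ranges of these 3 genes overlapped (65.1 to 109.8, 67.2 to 99.4 and 59.6 to 82.3). In RV nPAB the order was Cxcl12 at 131, Ackr3 at 81.1 and Cxcr4 at 59.8, and neighbouring ranges again overlapped. LV Sham had Cxcr4 at 112, Ackr3 at 88.6 and Cxcl12 at 88.4, and LV nPAB had Cxcl12 at 136, Ackr3 at 78.4 and Cxcr4 at 52.8. The receptor thus stood first by mean in both Sham groups and below Cxcl12 and Ackr3 in both nPAB groups. Ccr9 and Ccl28 were near the bottom in every group, between 0.415 and 2.21 per kilobase.

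**Figure D1:**
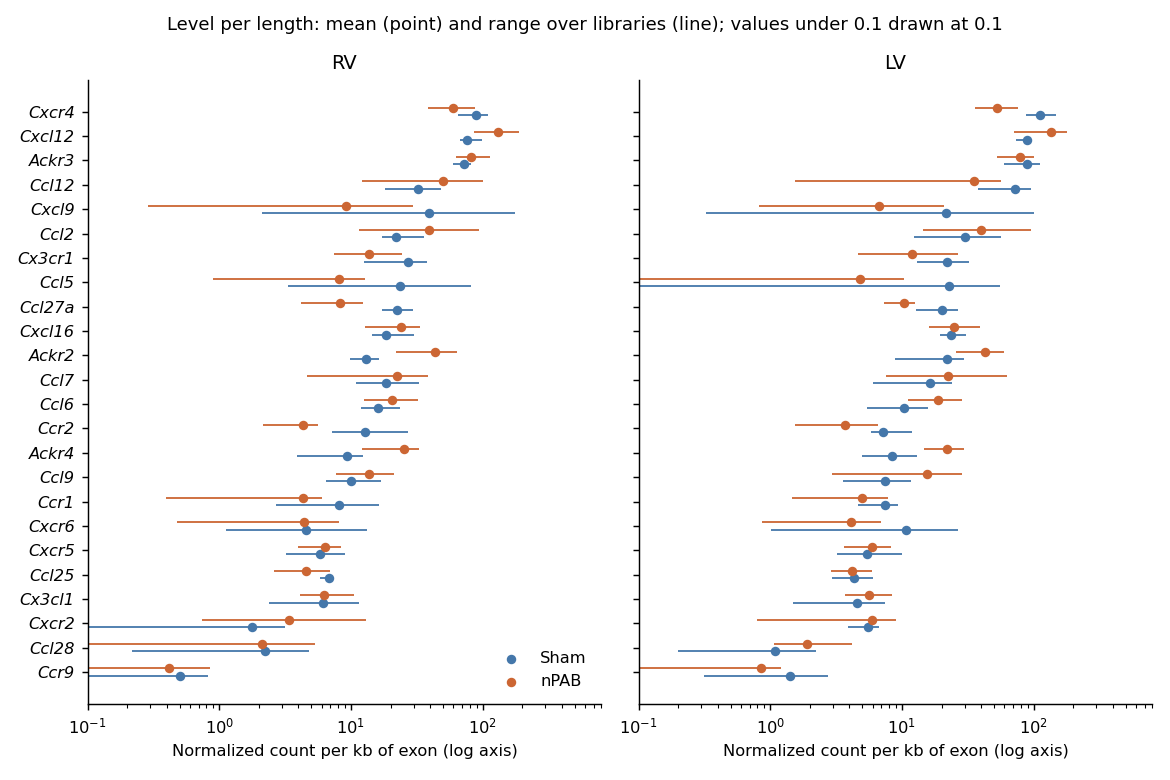
Level of 24 members in normalized counts per kilobase of exon on a log axis, RV on the left and LV on the right. Points are group means and lines the range over libraries (5 Sham, 6 nPAB). Cxcr4, Cxcl12 and Ackr3 lead the Sham groups, and Ackr2 is at 13.0 in RV Sham and 43.9 in RV nPAB.

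The first comparison asked which members differed between nPAB and Sham in the RV, whose outflow is banded. Of 22 members tested, 7 passed the test (31.8%), against 22.0% of all 13660 genes tested there (11.1% higher and 10.8% lower). The atypical receptors Ackr2 and Ackr4 and the ligand Cxcl12 rose. The ligand Ccl27a and the receptors Ccr2, Cx3cr1 and Cxcr4 fell. Fold changes are given as log2 of the normalized count plus 1, and the threshold was an adjusted p of 0.05 in limma. The median log2 fold change was 0.11 over the members and 5.2e-05 over all genes.

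The same comparison in the LV, which the band does not load directly, found 3 of 24 members (12.5%), against 9.31% of all 13528 genes tested (4.76% higher and 4.55% lower). Ackr4 and Ackr2 rose and Cxcr4 fell. The median log2 fold change was -0.03 over the members and -0.01 over all genes. By role, 2 of 3 atypical receptors were higher in each ventricle. Of the signalling receptors, 3 of 6 were lower in the RV and 1 of 9 in the LV. Of the ligands, 1 of 13 was higher and 1 lower in the RV, and 0 of 12 passed in the LV. In the LV 9 of the 24 members had an unadjusted limma p under 0.05 (37.5%, against 24.6% of all genes). In the RV it was 8 of 22 (36.4%, against 33.8% of all genes). In the LV edgeR called 4 members and 1243 genes in all, and DESeq2 5 members and 1680 genes. In the RV edgeR called 6 members and 2997 genes, and DESeq2 7 members and 3354 genes.

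**Figure D2:**
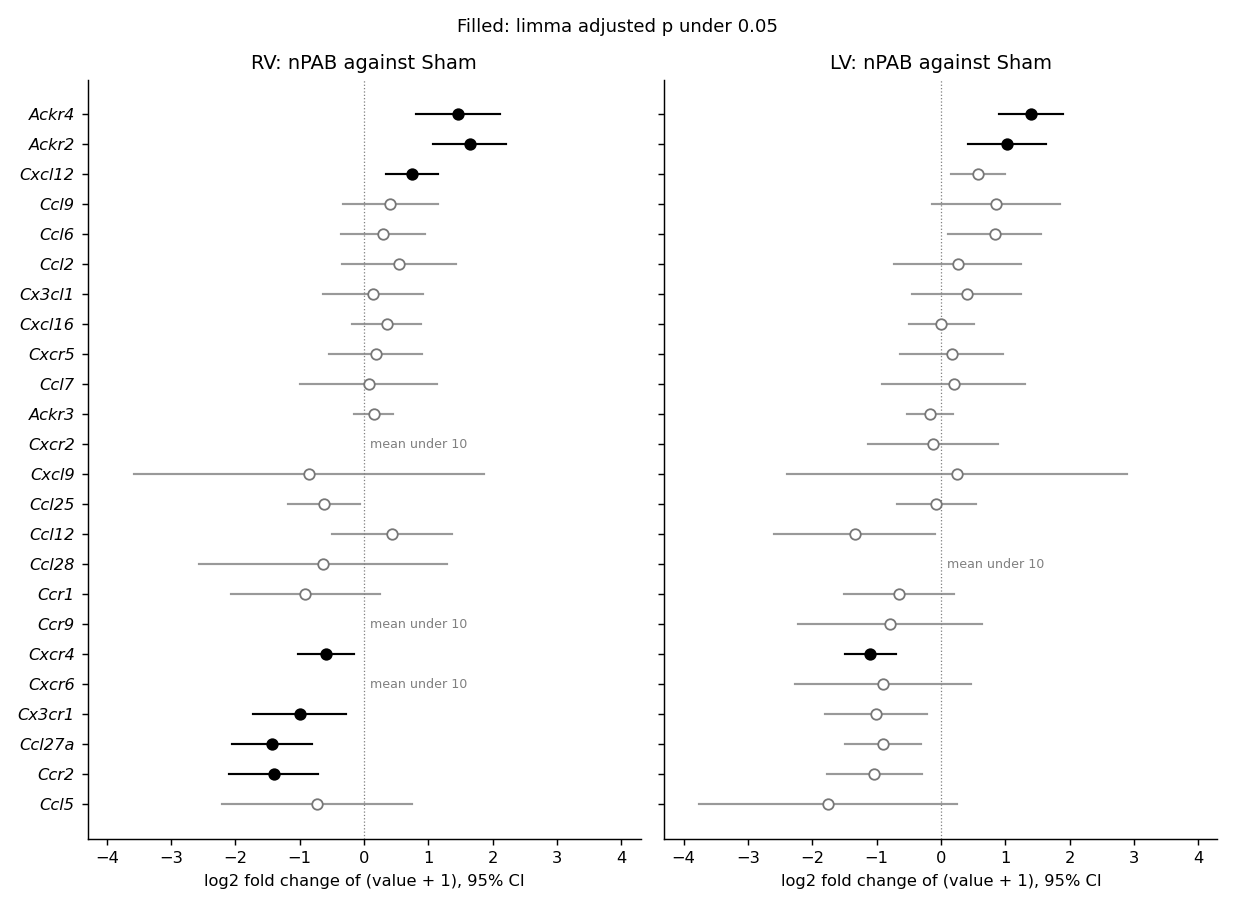
Log2 fold change of nPAB against Sham with its 95% confidence interval for the members, RV on the left and LV on the right, filled where the limma adjusted p was under 0.05. There are 7 filled points in the RV and 3 in the LV, and members with a mean under 10 in a table have no point there.

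Among the ligands, Cxcl12 (ENSMUSG00000061353, chr6:117168535-117181367 in mm10) was the most abundant by counts. RV Sham libraries were at 627, 812, 556, 562 and 549 normalized counts in mice 9 to 13, and RV nPAB libraries ran from 700.2 through a median of 1029.6 to 1543. Mouse 10 was the high Sham library, and 5 of 6 nPAB libraries lay above it. The RV log2 fold change was 0.75 ± 0.19 SE (adjusted p = 0.0118), from 621 ± 111 (SD, n = 5) to 1073 ± 322 (n = 6).

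In the LV, Cxcl12 was at 795, 789, 605, 655 and 772 in the Sham libraries and at 581, 1121 and 1463 (lowest, median, highest) in nPAB. The library labelled nPAB mouse 6 lay below every Sham library and the other 5 above them all. A log2 fold change of 0.57 ± 0.19 SE did not pass the test (adjusted p = 0.0863). Without nPAB mouse 6 it was 0.75 (adjusted p = 3.22e-04), and without mice 6 and 7 it was 0.77 (adjusted p = 9.02e-04). The LV value passed under 3 of 23 alternatives, and under 1 of the 11 fits that left out 1 mouse. Its lowest value over the alternatives was 0.48 and its highest adjusted p 0.172. In the RV, leaving out mice 6 and 7 gave 0.74 (adjusted p = 0.0301).

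Ccl27a (ENSMUSG00000073888, chr4:41769467-41774247), a skin-homing ligand of Ccr10, was the ligand that fell. RV Sham libraries were at 42.5, 61.4, 70.6, 40.9 and 50.5, and RV nPAB libraries at 10.0, 19.3 and 29.6 (lowest, median, highest), so the groups did not overlap. The log2 fold change was -1.43 ± 0.30 SE (adjusted p = 0.00199). LV Sham libraries were at 44.8, 30.2, 63.9, 58.1 and 40.9 and LV nPAB libraries at 17.3, 27.4 and 30.0, again without overlap, with a log2 fold change of -0.90 ± 0.28 SE (adjusted p = 0.0525). This LV value passed under 7 of 22 alternatives, edgeR and DESeq2 among them. Its receptor Ccr10 stayed under 10 in every library. The copies Ccl27b and Ccl27 were at 0 in all 22 libraries, and how reads shared between such copies were counted is not given in the sources used here, so the Ccl27a level is uncertain.

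The Ccl27a exons share 8 bases with Il11ra1 on the opposite strand. Il11ra1, a cytokine receptor gene, had a log2 fold change of -0.58 ± 0.23 SE in the RV (adjusted p = 0.0763) and -0.69 ± 0.26 SE in the LV (adjusted p = 0.108). Its part in the Ccl27a values was not tested.

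The monocyte-attracting ligands Ccl2, Ccl7 and Ccl12, which lie together at chr11:82035571-82103400, did not pass in either ventricle. Ccl2 ran from 19.7 to 40.9 in RV Sham and from 13.0 to 107 in RV nPAB, and from 14.0 to 63.9 in LV Sham and 16.6 to 109 in LV nPAB. The highest library in both nPAB groups was that of mouse 10. The RV log2 fold change of Ccl2 was 0.55 ± 0.42 SE (adjusted p = 0.388), and 1.07 without mice 6 and 7 (adjusted p = 0.0520). Ccl7 ranged from 3.70 to 31.0 in the RV, and nPAB mouse 10 was again the highest library in both ventricles.

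Ccl12 was at a median of 16.4 in RV Sham and 24.9 in RV nPAB, and at 42.0 in LV Sham and 20.7 in LV nPAB. The RV log2 fold change was 0.44 ± 0.45 SE (adjusted p = 0.530) and the LV value -1.34 ± 0.59 SE (adjusted p = 0.173). The library labelled LV nPAB mouse 6 held 0.830, the lowest of all 22, and without that mouse the LV value was -0.73 (adjusted p = 0.167). Without mice 6 and 7 it was -0.70 in the LV and 0.75 in the RV, neither passing.

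Ccl5, Ccl9 and Ccl6 lie together at chr11:83525778-83593087. Ccl6 and Ccl9, ligands of Ccr1 made by myeloid cells, were at LV means of 18.6 ± 7.26 and 22.7 ± 9.84 in Sham (SD, n = 5) and 33.5 ± 11.6 and 47.2 ± 27.9 in nPAB (n = 6). Neither passed (adjusted p = 0.139 and 0.276). Without nPAB mouse 5, whose LV library held 9.03, the log2 fold change of Ccl9 was 1.25 (adjusted p = 0.0404). That was the only 1 of 22 alternatives that passed for Ccl9 in the LV. Over these alternatives the value ran from 0.63 to 1.25, with an adjusted p of up to 0.486.

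Ccl5, a T-cell attractant, was at medians of 8.75 and 8.35 in RV Sham and RV nPAB and of 19.3 and 3.89 in LV Sham and LV nPAB, with LV libraries at 0 in 1 Sham and 2 nPAB mice. Its log2 fold changes of -0.73 and -1.75 had standard errors of 0.70 and 0.95 and did not pass.

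Cxcl16, a transmembrane ligand of Cxcr6, was at medians of 46.0, 70.0, 66.2 and 70.9 in RV Sham, RV nPAB, LV Sham and LV nPAB and did not pass. Cxcl16 shares 18.3% of its exon bases with Zmynd15 on the opposite strand, so its level is uncertain.

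Cx3cl1, the membrane-bound ligand of Cx3cr1, was at 24.1 ± 13.4 in RV Sham and 24.7 ± 8.85 in RV nPAB, a log2 fold change of 0.14 with a 95% interval of -0.64 to 0.91. In the LV the value was 0.40, with an interval of -0.45 to 1.25. Both intervals include 0 and neither shows that the level stayed the same.

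Ccl25, the thymic and gut ligand of Ccr9, lay between 43.4 and 55.4 in RV Sham and between 19.5 and 52.0 in RV nPAB, where 5 of 6 libraries were below the lowest Sham library. Its log2 fold change of -0.63 ± 0.27 SE did not pass (adjusted p = 0.102). Ccl28, a mucosal ligand of Ccr10, was closest to the inclusion limit, at an RV mean of 10.4. Ccl24, an eotaxin, stood just outside at 9.63.

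Among the receptors, Cxcr4 (ENSMUSG00000045382, chr1:128588199-128592293) was lower in nPAB in both ventricles. LV Sham libraries were at 176, 214, 158, 266 and 202, and LV nPAB libraries at 65.4, 89.7 and 137 (lowest, median, highest). The 2 LV groups did not overlap, and the log2 fold change was -1.10 ± 0.19 SE (adjusted p = 0.00125). This call held under all 23 alternatives, with values from -1.21 to -0.99.

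In the RV, Cxcr4 was at 199, 135, 175, 118 and 177 in Sham and at 70.0, 96.4 and 157 in nPAB, and 4 of 6 nPAB libraries lay below every Sham library. Its log2 fold change was -0.60 ± 0.21 SE (adjusted p = 0.0454). The call held under 10 of 23 alternatives. Among the losses were 8 of 11 fits that left out 1 mouse (adjusted p up to 0.118) and edgeR (adjusted p = 0.0517), while the direction held. In bulk tissue, fewer cells that carry a receptor and less of its RNA per cell cannot be told apart.

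Within each library, the Cxcl12 count divided by the Cxcr4 count was 3.16, 6.02, 3.18, 4.78 and 3.099 in RV Sham and 5.31, 9.96 and 17.0 (lowest, median, highest) in RV nPAB. In the LV it was 4.51, 3.69, 3.82, 2.47 and 3.81 in Sham and 4.24, 13.4 and 17.3 in nPAB. One library overlapped in each ventricle: RV nPAB mouse 7, and LV nPAB mouse 6. The ratio joins 2 genes already described and was not tested.

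**Figure D3:**
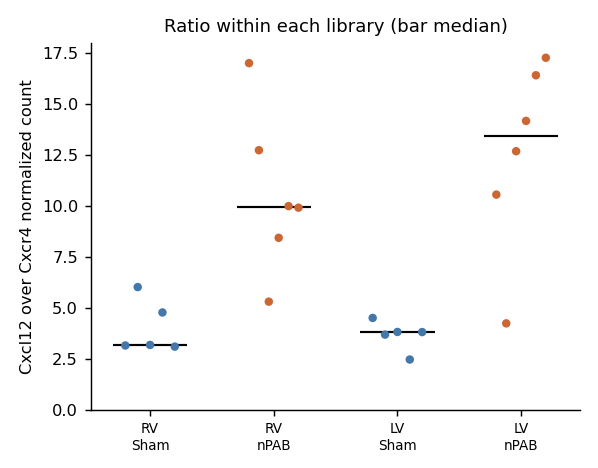
Cxcl12 normalized count divided by Cxcr4 normalized count in each of the 22 libraries, by group, with the median as a bar. Medians are 3.18 and 9.96 in RV Sham and RV nPAB and 3.81 and 13.4 in LV Sham and LV nPAB, and 5 of 6 nPAB libraries in each ventricle lie above every Sham library.

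Ccr2 (ENSMUSG00000049103, chr9:124101950-124113557), the receptor for Ccl2 on recruited monocytes, was at 48.9, 66.9, 77.8, 55.4 and 184 in RV Sham and at 14.6, 31.7 and 38.2 in RV nPAB. Sham mouse 13 was far above the rest, and the groups did not overlap. Ccr2 fell in the RV, with a log2 fold change of -1.41 ± 0.33 SE (adjusted p = 0.00456), and -1.09 without Sham mouse 13 (adjusted p = 0.0158). In the LV, Sham libraries were at 43.8, 41.1, 39.6, 39.8 and 80.7 and nPAB libraries at 10.4, 23.1 and 44.2. Only nPAB mouse 10 overlapped, and the value of -1.04 ± 0.35 SE did not pass (adjusted p = 0.0725). Without nPAB mouse 10 it was -1.23 (adjusted p = 0.0330), the only 1 of 22 alternatives that passed. Over these alternatives the value ran from -1.23 to -0.83, with an adjusted p of up to 0.174.

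Cx3cr1 (ENSMUSG00000052336, chr9:119901616-120069879), the fractalkine receptor of monocytes and resident macrophages, was at 90.3, 130.4, 169, 56.4 and 163 in RV Sham and at 33.8, 54.7 and 109.9 in RV nPAB. The groups overlapped, and 3 of 6 nPAB libraries lay below Sham mouse 12, the lowest Sham library. Its log2 fold change of -0.999 ± 0.34 SE passed narrowly (adjusted p = 0.0467). The call held under 11 of 23 alternatives. Among the losses were 8 of 11 fits without 1 mouse and the fit without nPAB mice 6 and 7 (-0.70, adjusted p = 0.188).

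LV Sham libraries of Cx3cr1 were at 103, 117, 58.9, 67.8 and 145, and LV nPAB libraries at 20.8, 44.6 and 119. The nPAB library of mouse 10 was the second highest of the 11, and 4 of 6 nPAB libraries lay below every Sham library. The log2 fold change was -1.01 ± 0.38 SE (adjusted p = 0.103). It was -1.29 without nPAB mouse 10 (adjusted p = 0.0157) and -0.58 without mice 6 and 7 (adjusted p = 0.338).

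**Figure D4:**
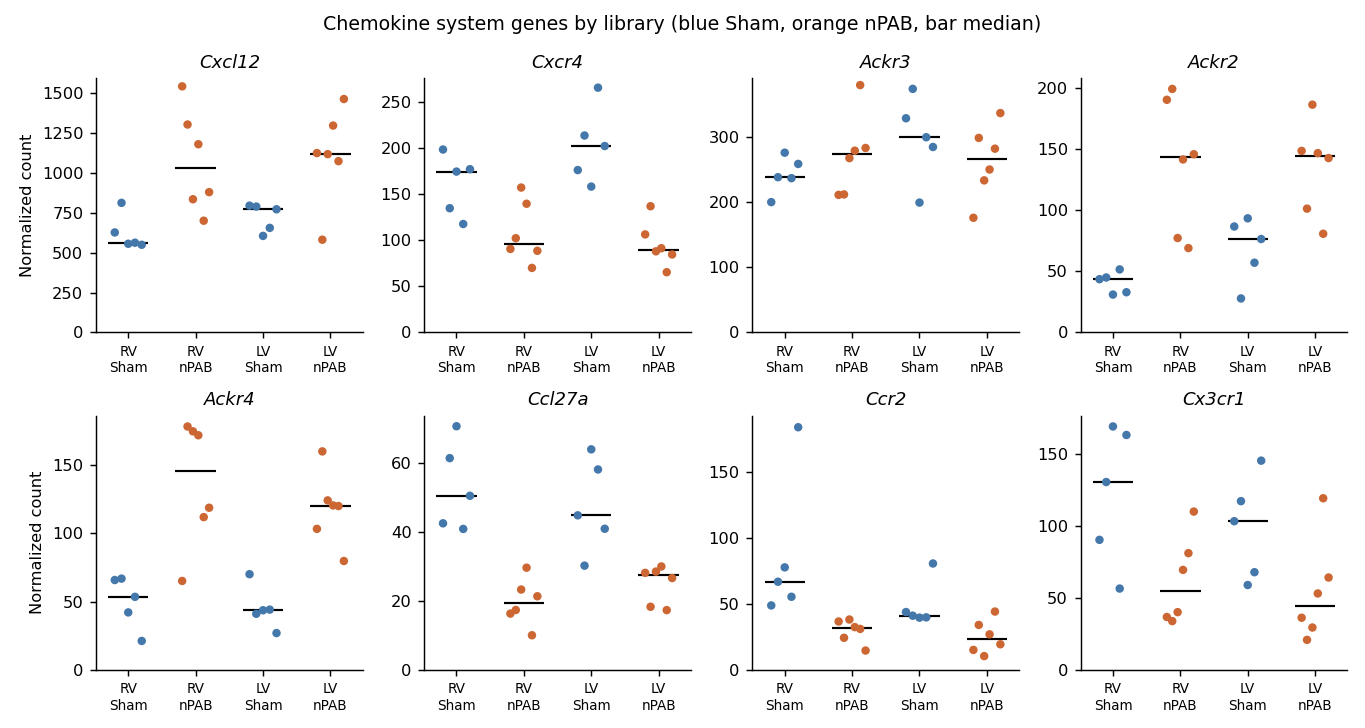
Normalized counts of 8 members in each library, by group, with the median as a bar, on linear axes from 0. Cxcr4 and Ccl27a are lower and Ackr2 and Ackr4 higher by median in nPAB than in Sham in both ventricles, and the Sham library at 184 in the Ccr2 panel is RV Sham mouse 13.

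Ccr1, a receptor of Ccl6 and Ccl9 on myeloid cells, was at 23.1 ± 14.5 in RV Sham and 12.2 ± 5.80 in RV nPAB (adjusted p = 0.264), and at 21.0 ± 5.04 and 14.0 ± 5.93 in the LV (adjusted p = 0.345).

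Ccr9 and Cxcr6 reached a mean of 10 only in the LV, at 14.6 and 20.8 in Sham and 8.75 and 7.91 in nPAB, and did not pass. Ccr9 shares 18.8% of its exon bases with AC165425.1 on the opposite strand. Cxcr2, the neutrophil receptor, was at 16.7 ± 3.74 in LV Sham and 18.0 ± 8.51 in LV nPAB. In the RV the Cxcr2 mean was 8.03, under the limit, so nPAB and Sham were not tested there. Cxcr5, known from B cells, lay between 10.7 and 33.5 in all 22 libraries.

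The atypical receptors held the largest rises of the family. Ackr2 (ENSMUSG00000044534, chr9:121898355-121911074) was at 43.5, 44.9, 31.0, 51.6 and 32.9 in RV Sham and at 69.0, 144 and 199 in RV nPAB, with no overlap. The log2 fold change was 1.64 ± 0.27 SE (adjusted p = 3.20e-04), and it passed under all 23 alternatives, from 1.51 to 1.82. LV Sham libraries were at 86.7, 27.8, 93.4, 57.0 and 76.4 and LV nPAB libraries at 80.7, 145 and 186. In the LV 5 of 6 nPAB libraries lay above every Sham library.

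The LV log2 fold change of Ackr2 was 1.03 ± 0.29 SE (adjusted p = 0.0302). It was 0.74 without Sham mouse 10, the low library (adjusted p = 0.0641), and 0.99 without nPAB mice 6 and 7 (adjusted p = 0.0852). The call held under 16 of 23 alternatives and was lost in 5 of 11 fits that left out 1 mouse.

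Ackr4 (ENSMUSG00000079355, chr9:104084157-104126933) was at 65.8, 66.9, 42.1, 53.5 and 21.1 in RV Sham and at 65.2, 146 and 179 in RV nPAB. Only nPAB mouse 5 lay within the Sham range. Ackr4 rose in the RV by a log2 fold change of 1.46 ± 0.31 SE (adjusted p = 0.00261). LV Sham libraries were at 70.1, 41.1, 43.6, 44.1 and 26.9 and LV nPAB libraries at 79.8, 120.4 and 160.2, without overlap, at 1.40 ± 0.24 SE (adjusted p = 0.00111). Both calls held under all 23 alternatives each.

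Ackr4 shares 8.90% of its exon bases with Acad11, a mitochondrial enzyme gene on the opposite strand. Acad11 had a log2 fold change of 0.04 in the RV (adjusted p = 0.884) and -0.09 in the LV (adjusted p = 0.714). Of the ligands that Ackr4 clears, Ccl25 is described above, and Ccl19 and the Ccl21 rows stayed under 10 in every library. Ccl19 and Ccl21 have copies too, so their levels are uncertain in the same way as that of Ccl27a.

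Ackr3 (ENSMUSG00000044337, chr1:90203980-90216751), the scavenger of Cxcl12, was at 199.7, 238, 275, 236 and 258 in RV Sham and at 211, 273 and 379 in RV nPAB. In the LV it was at 328, 373, 199, 299 and 284 in Sham and at 176, 266 and 336 in nPAB. The groups overlapped in both ventricles. The RV log2 fold change was 0.15 with a 95% interval of -0.16 to 0.45, and the LV value -0.18 with an interval of -0.53 to 0.18.

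Groups that did not overlap were found for 3 members in each ventricle: Ackr2, Ccl27a and Ccr2 of 22 in the RV, where 12.9% of all genes tested did not overlap, and Ackr4, Cxcr4 and Ccl27a of 24 in the LV, against 6.53%. The 7 RV calls with mice 6 and 7 left out became 6, since Cx3cr1 did not pass. The LV calls without these mice were again 3 in number, with Cxcl12 in place of Ackr2.

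The difference between the ventricles was tested within mice, as log2 RV minus log2 LV in nPAB against the same in Sham. In limma 0 of 21 members passed, against 1.11% of all 13364 genes (0.584% higher and 0.524% lower), and 2 members had an unadjusted p under 0.05 (9.52%, against 12.5% of all genes). edgeR and DESeq2 on the recovered reads also called 0 members, as did limma without mice 6 and 7. Of the 2 members with an unadjusted limma p under 0.05, 1 was Ccl12 (1.78 ± 0.71 SE, adjusted p = 0.287).

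For Ackr4 the RV minus LV difference was 0.06 with a 95% interval of -0.52 to 0.65, for Cxcl12 0.18 (-0.57 to 0.93), for Cxcr4 0.50 (-0.04 to 1.04) and for Ackr2 0.61 (-0.19 to 1.41). These intervals include differences of more than 0.5 on the log2 scale, so a call in 1 ventricle and not in the other does not show that the ventricles differed.

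Sham RV and Sham LV were compared on reads scaled jointly over the 22 libraries, over 5 mice. The filter on the joint scale admitted 25 genes of the family, with Ccl24 in and Ccl28 out. In limma 0 of these 25 passed, against 1.98% of all 13701 genes (1.07% higher and 0.912% lower), and 11 had an unadjusted p under 0.05 (44.0%, against 11.8% of all genes). Cxcr2 was lower in the RV of 5 of 5 mice (log2 difference -1.93 ± 0.60 SE, adjusted p = 0.112) and Ccl12 likewise (-1.17 ± 0.35 SE, adjusted p = 0.0849). The Cxcr2 differences ran from -4.46 to -0.67 and rested on 0 to 12 reads per RV Sham library, so their size is uncertain. Cxcl9, an interferon-induced ligand of Cxcr3, was higher in the RV of 5 of 5 (1.37 ± 0.42 SE, adjusted p = 0.0996). It passed with edgeR (adjusted p = 0.0397) and DESeq2 (adjusted p = 0.0287), the one member these tools called. Cxcl12 was lower in the RV of 4 of 5 mice, by a log2 difference of -0.27 ± 0.08 SE (adjusted p = 0.101).

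Sham mouse 13 stood apart from the other Sham mice in both ventricles. Cxcl9 was at 6.37, 12.1, 23.8, 15.6 and 534 in RV Sham and at 0.974, 8.46, 8.12, 2.15 and 306 in LV Sham, the last value of each being mouse 13. In nPAB it was at 0.867, 14.0 and 89.6 in the RV and at 2.49, 9.24 and 63.0 in the LV. The Sham mean of Cxcl9 thus rested on 1 mouse, and without it the RV log2 fold change went from -0.85 to 0.20 and the LV value from 0.25 to 1.45, none of them passing. Without nPAB mice 6 and 7 the RV value was -0.02 (adjusted p = 0.995).

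Ccl5, at 78.6 in the RV and 53.8 in the LV, and Ccr2 were also highest in Sham mouse 13 in both ventricles. Below the inclusion limit, Ccl8, an eosinophil and T-cell attractant, was at 18.8 and 20.5 in mouse 13 and at most 0.974 in the other Sham libraries.

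**Figure D5:**
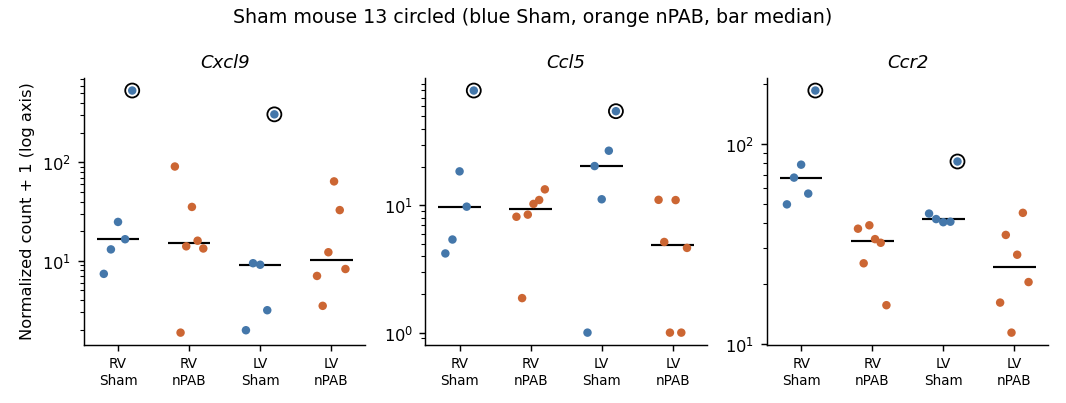
Normalized count plus 1 of Cxcl9, Ccl5 and Ccr2 in each library on log axes, with Sham mouse 13 circled and group medians as bars. Mouse 13 is the highest Sham library in both ventricles for each gene, at 534 and 306 normalized counts of Cxcl9.

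The natural killer cell markers, 6 genes, summed to 68.1 in RV Sham and 36.6 in LV Sham at the highest library, which was mouse 13 in each, against medians of 4.38 and 9.66. The 8 T-cell markers summed to 117 and 95.8 in the same mouse, against medians of 45.2 and 56.5, and the 7 dendritic cell markers to 991 and 695, against 315 and 294. The 12 macrophage markers were also highest among Sham libraries in mouse 13, at 1988 and 1564, against medians of 1582 and 1283. The monocyte sums in this mouse were 4245 and 3982, against 4619 and 4028, and the neutrophil sums 176 and 141, against 183 and 207. The natural killer, T-cell, dendritic cell and macrophage markers thus moved with these members in this mouse. Their part in the result was not tested.

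Marker genes of myeloid cells were read beside Ccr2 and Cx3cr1. For the marker counts here and below, 22.0% of all genes tested passed in the RV and 9.31% in the LV. None of the 10 tested macrophage markers passed in either ventricle, and their list of 12 summed to 1211 to 1988 in RV Sham, 1145 to 1864 in RV nPAB, 1174 to 1564 in LV Sham and 1074 to 2351 in LV nPAB. Of 4 tested monocyte markers, 2 were higher in the RV, namely Ly6c1 and Ace, both also expressed by vessels, and Ace was also higher in the LV, where 3 were tested, while Ly6c2 was at medians of 3.29 or less in the 4 groups. The 10 neutrophil markers summed to 170 to 437 (median 183) in RV Sham and 284 to 458 (median 342) in RV nPAB. In the LV the sums were 141 to 594 (median 207) in Sham and 294 to 402 (median 344) in nPAB. The groups thus overlapped in both ventricles. Of 4 neutrophil markers tested, Retnlg rose in the RV (log2 fold change 1.97, adjusted p = 0.0302) and 0 passed in the LV. The defining markers Ly6g and Elane were at 0 in all Sham libraries. In nPAB they were also absent or nearly so: Elane was at 0 in all RV libraries and Ly6g in all LV libraries, and Ly6g reached at most 1.00 in the RV. The part of cell numbers in the receptor results was not tested.

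Vessel and stromal markers moved in both directions beside the Cxcl12 and atypical receptor results. Tek, an endothelial receptor, fell in the RV and the LV (log2 fold change -0.68 and -0.47), and Fabp4 rose in the RV (0.40). The other 6 and 7 of 8 endothelial markers did not pass. In the lymphatic list Prox1, which cardiomyocytes also express, fell in both ventricles (-1.34 and -1.18) and Flt4 rose in the RV (0.46), while Lyve1, Pdpn, Reln and Mmrn1 did not pass. The fibroblast markers Pdgfra (-0.45) and Dpt (-0.74) fell in the RV. The 5 atrial markers summed to 342 to 2916 (median 2088) in RV Sham and 1190.3 to 10797 (median 3898) in RV nPAB, and to medians of 1533 and 1239.8 in LV Sham and LV nPAB. Of these 5 Dkk3 passed, in the RV (1.06). The 8 erythroid and platelet markers had median sums of 2282 and 3449 in RV Sham and RV nPAB and 2551 and 3321 in the LV, with Hbb-bt higher in the RV (0.64). The 6 B-cell markers had median sums of 108 and 50.5 in the RV and 106 and 60.2 in the LV, with Ighm lower in the RV (-1.05). The part of these markers in the results was not tested.

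The rest of the pathway was read from 4 lists, which were not tested as sets. Beside each list, 22.0% of all genes tested passed in the RV (11.1% higher and 10.8% lower). In the LV 9.31% of all genes passed (4.76% higher and 4.55% lower). Of 19 genes for non-classical ligands and chemokine processing, 17 were tested, and 2 rose and 1 fell in each ventricle. Mif, a cytokine that also binds Cxcr4, rose by 1.73 ± 0.16 SE in the RV (adjusted p = 1.04e-05) and 1.09 ± 0.14 SE in the LV (adjusted p = 2.68e-04). Mif has many processed copies in the genome and its counts are uncertain. Ccrl2, a decoy receptor that holds chemerin at the cell surface, fell by 1.33 in the RV (adjusted p = 1.17e-04) and by 0.92 in the LV (adjusted p = 0.0342). Cmklr1, the chemerin receptor, rose in the RV (1.06, adjusted p = 9.90e-04), and Furin, a protease, in the LV (0.41, adjusted p = 0.0226). The list median was -0.02 in the RV and -0.03 in the LV.

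Of 31 genes of chemokine receptor signalling, 3 of 29 tested rose and 2 fell in the RV, and 2 of 28 rose in the LV. Shares over all genes were 22.0% in the RV and 9.31% in the LV. Stat3, a transcription factor of cytokine and growth signals, rose in both (0.59 and 0.52, adjusted p = 3.19e-05 and 0.00359). Gnb2, a G-protein beta subunit, rose in the LV (0.51, adjusted p = 0.0262). The inhibitory G-protein subunit Gnai2 (0.25) and the kinase Ptk2b (1.08) rose in the RV. Grk3, a receptor kinase that desensitises Cxcr4, fell (-0.50), as did Rgs2, a brake on G-protein signals (-0.67). The list median was 0.03 in the RV and 0.01 in the LV.

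Of 19 genes of leukocyte adhesion, 14 were tested. Vcam1, which binds leukocyte integrins, and Jam2, a junction protein, fell in the RV (-0.87 and -0.52, adjusted p = 8.21e-04 and 0.00383), and Icam2, on endothelium, rose (0.36, adjusted p = 0.0262). None of the 14 passed in the LV. For this list and the next, the shares over all genes were again 22.0% in the RV and 9.31% in the LV. Of 21 NF-kB and inflammatory cytokine genes, 15 were tested and 1 passed, the interleukin-1 receptor Il1r1, which rose in both ventricles (0.66 and 0.50, adjusted p = 0.00334 and 0.00932). The list medians were -0.18 and 0.02 for adhesion and 0.09 and -0.02 for NF-kB in the RV and the LV.

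The whole family took 175 to 305 reads per 1e6 reads in RV Sham, 221 to 285 in RV nPAB, 209 to 281 in LV Sham and 194 to 282 in LV nPAB. Cxcl12 supplied a median of 36.6% of these reads in RV Sham, 45.0% in RV nPAB, 34.3% in LV Sham and 50.9% in LV nPAB.

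The remaining 42 rows were under a mean of 10 in both tables and were not tested between nPAB and Sham. In 11 of them the highest library reached 10. Ackr1, the Duffy receptor of red cells and venules, lay between 0 and 14.6 in all groups, and Ccl11 and Ccl24, the eotaxins, reached 16.4 and 22.5. Ccl24 was at 9.73 to 18.1 in RV Sham and at 0 to 22.5 in RV nPAB, where 5 of 6 libraries were at 5.09 or less. Cxcl1 and Cxcl2, the neutrophil attractants, reached 18.0 and 10.0, both in RV nPAB mouse 10. Ccl3 and Ccl4 reached 19.3 and 19.1, both in nPAB mouse 11 but in the LV and the RV respectively. Cxcl10, Xcl1 and Xcr1 reached 20.0, 10.6 and 10.8, all in Sham mouse 13.

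The other 31 rows were under 10 in every library: Ccl1, Ccl17, Ccl19, Ccl20, Ccl21a, Ccl21b, Ccl21c, Ccl22, Ccl26, Ccl27, Ccl27b, Ccr10, Ccr1l1, Ccr3, Ccr4, Ccr6, Ccr7, Ccr8, Cxcl13, Cxcl14, Cxcl15, Cxcl17, Cxcl3, Cxcl5, Cxcr1 and Cxcr3, several of them on more than 1 row. Of these, 12 rows had 0 reads in all 22 libraries, which allows up to 3 reads, or 0.265 to 0.422 per 1e6 reads depending on the library, counting error only. Several of the rows at 0 are copies of Ccl19, Ccl21 and Ccl27 genes. How reads shared between copies were counted is not given, so this limit does not bound the level of such copies. Cxcr3, the receptor of Cxcl9, and Ccr3, the receptor of the eotaxins, were thus below the level tested here. Pf4 and Ppbp, platelet chemokines whose symbols the rule does not cover, did not pass in either ventricle (adjusted p from 0.0530 to 0.326).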

How the data were processed

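Per the labels' protocols, Qiagen RNeasy columns gave the RNA and the Revelo High Sensitivity kit the libraries. The 22 heart libraries held 7.11 to 11.3 M reads. The authors deposited 1 table per ventricle of gene counts scaled by DESeq2 size factors, a signal in normalized counts. Trimming with cutadapt, counting with featureCounts and build mm10 come from the submitters' processing notes. An aligner, tool versions and the strand setting were not given in the sources used here. Dividing by each library's smallest step gave whole reads for 100% of values (tolerance 0.001).

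The 2 tables were normalized separately, so nPAB and Sham were compared within a table. Genes with a mean of at least 10 were tested on log2(value + 1) with limma 3.58.1 (R 4.3.3, trend and robust), two-sided, with Benjamini-Hochberg adjustment over all genes tested and a threshold of 0.05. RV minus LV effects used within-mouse differences, and Sham RV against Sham LV used TMM-scaled recovered reads over 22 libraries. In both within-mouse fits the variance trend was first fitted on the mean difference, which called 1 and 0 genes. On simulated data that version recovered 43.9% and 19.7% of 4-fold changes, and the trend was then moved to the mean level, after those results had been seen. The revised fits recovered 81.8% and 90.9%. They also made more false calls: 8 of 102 and 15 of 149 calls fell on unchanged genes, against 1 of 38 and 0 of 13 in the first version. The simulation drew the ventricles of a mouse independently, so it does not show how the fits behave where they are correlated. In the RV and LV comparisons 87.9% and 92.4% of 4-fold changes were recovered, and 55.2% and 68.7% of 2-fold changes.

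The pairing of ventricles comes from the numbers in the titles. Same-number libraries had deviations correlated at 0.0548 to 0.383 (median 0.198, 11 pairs). For 50 pairs of other numbers the range was -0.211 to 0.180 (median -0.0533), so the ranges overlapped. The highest of these, 0.180, joined RV nPAB mouse 6 with LV nPAB mouse 7, both female by Xist and Ddx3y. RV nPAB mouse 7 with LV nPAB mouse 6 was at -0.0433. The same-number pairs of nPAB mice 6 and 7 were at 0.172 and 0.0548. Numbers 10 and 11 occur in both nPAB and Sham and name different animals. Alternatives were edgeR 4.0.16 and DESeq2 1.42.0 on recovered reads, other pseudocounts and filters, and each mouse left out.

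The members and gene lists were chosen with earlier results of these data known. Members with a mean of at least 10 in either table were named, with every called member in full, except 1 member that passed no main test and is not reported here. Gene models are GENCODE M21 and promoters RefSeq.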

Additional observations from a re-analysis of the deposited data

Results flagged for a closer look

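Single libraries far from the rest of their group were found in 12 of 100 groups of member values on the log2(normalized count + 1) scale. Chance would give about 1 in 20, or 5, if the groups were independent and their values normally spread. The groups share the same 22 libraries and several flagged values lay near 0 reads. The expected 5 is therefore rough, and no excess was tested. In Sham mouse 13 the flagged values were Cxcl9 at 534 normalized counts in the RV and Ccr2 at 80.7 in the LV, each the highest of its group. In the libraries labelled nPAB mouse 6 they were Ccl12 at 0.830, Ccr1 at 4.15 and Cxcl12 at 581 in the LV, each the lowest, and Ccl5 at 0.867, the lowest, and Cxcr2 at 39.9, the highest, in the RV. In nPAB mouse 11 they were Ccr1 at 1.12 in the RV and Ccr9 at 0 and Cxcr2 at 2.42 in the LV, each the lowest. Ccl2 at 40.9 in RV Sham mouse 12 and Cxcl16 at 91.3 in RV Sham mouse 11 were each the highest.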

How the results depend on the processing

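The LV call count of 1260 genes was 739 with limma without trend and robust fitting and 668 without nPAB mice 6 and 7, and ran from 841 to 1290 with 1 mouse left out. The LV count of 3 members was 5 with DESeq2 and ran from 2 to 5 with 1 mouse left out. The RV counts ran from 2399 to 3015 genes and from 5 to 7 members with 1 mouse left out. For RV minus LV, the count of 148 genes was 1 without trend and robust fitting, 1 with the trend on the mean difference, which was the first version fitted (the trend on the mean level was chosen after seeing its results), 5 with no replicate block (unpaired ventricles), 251 with DESeq2 and 501 without nPAB mice 6 and 7, and ran from 80 to 393 with 1 mouse left out. For Sham RV against Sham LV, the count of 271 was 0 without trend and robust fitting, 0 with the trend on the mean difference and 36 with no replicate block, and ran from 156 to 246 with 1 mouse left out. There edgeR and DESeq2 each called 1 member, and the count with 1 mouse left out ran from 0 to 1. The cause of these differences was not tested. Of 1897 alternative values for single genes, 1765 kept their direction and side of the threshold, 32 lost the call, 16 gained it, 84 changed sign while called in neither, and 0 reversed. With 7.11 to 11.3 M reads, members near a mean of 10 rest on few reads.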
